A study of Mus musculus with 20 samples.

Results

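The response of the mouse heart to isoproterenol was compared between wild-type animals (WT) and animals lacking OGFOD1 (KO), and the quantity studied was the difference between both responses, that is KO isoproterenol minus KO vehicle, less WT isoproterenol minus WT vehicle. All 20 of the 20 libraries of the series entered, 5 in each of 4 groups. The mice were C57BL/6N, aged 3 to 5 months and fed a standard diet, and an osmotic minipump had delivered, for 2 weeks, either isoproterenol or the vehicle alone, which was buffered saline (PBS) containing sodium ascorbate. The WT vehicle and WT isoproterenol groups carried an intact Ogfod1 gene, and the KO vehicle and KO isoproterenol groups carried the knockout, of which the deleted part is not given in the sources used here. RNA came from an aliquot of powdered whole heart, so that all chambers and all cell types were read together. The labels do not say that the libraries of a group are separate mice, and p-values therefore measure the spread between libraries.

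Isoproterenol is an agonist of beta-adrenergic receptors, which in heart muscle couple through a stimulatory G protein to adenylyl cyclase, cyclic AMP and protein kinase A. Sustained stimulation of this pathway by a minipump is a common model of cardiac hypertrophy and fibrosis. OGFOD1 is an oxygenase that uses 2-oxoglutarate, iron and oxygen to hydroxylate Rps23, a protein of the small ribosomal subunit, and it has been linked to the accuracy of translation. A difference between responses, also called an interaction, addresses whether the drug moved a gene by a different amount in the knockout, whatever the level of that gene without the drug.

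Total counts were 14609808 to 43671055 per library, of which 5916852 to 17121499 lay outside the mitochondrial genome. Enough reads for a test were present for 14878 of 55335 genes. The targeted gene followed the labels in all 20 libraries. Ogfod1 measured 16.9 to 21.8 CPM (counts scaled to library size) over the 10 WT libraries and 2.39 to 4.13 CPM over the 10 KO libraries, and its own difference between responses was −0.06 on the log2 scale (SE 0.163, edgeR adjusted p = 0.948). The summed level of 8 cardiomyocyte markers ranged from 47872 to 71544 CPM, lowest in KO isoproterenol replicate 5, and none of the 8 markers of lung and thymus passed the filter. KO isoproterenol replicate 5 also stood apart in matrix, smooth muscle and blood genes, and WT vehicle replicate 2 in ribosomal-RNA-like transcripts. WT vehicle replicate 2 was also the highest of its group for Myh6 and Myh7 and the lowest for Myl4, Mybphl, Nppa and Nppb. Many values below are therefore also given without both libraries.

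No gene passed the test for a different response in the knockout. At a Benjamini-Hochberg adjusted p under 0.05, edgeR's quasi-likelihood test called 0 of 14878 genes (0%). The smallest adjusted p was 0.231, for the small nuclear RNA gene Rnu12, and the next was 0.518. An unadjusted p under 0.05 was found for 1142 genes (7.68%), of which 631 (4.24%) had a difference above 0, called positive below, and 511 (3.43%) one below 0, called negative. The sign gives the direction of KO minus WT and not which genotype moved more. An unadjusted p under 0.001 was found for 18. limma-voom called 0 genes with and without quality weights, and DESeq2 called 1, which was Rnu12 (adjusted p = 0.0373). Without a filter on low counts edgeR called 34 of 32544 genes, and without both libraries that stood apart 4 (smallest adjusted p = 1.97e-04 and 0.0420). Counting those borrowed across genes, the unfiltered fit had a median of 520704 degrees of freedom, against 29.1 in the main fit. Its tests therefore rested little on the spread of each gene itself.

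The same fit called many genes for isoproterenol within each genotype, 1304 in WT (8.76%) and 1344 in KO (9.03%). Of these, 551 were called in both, which is 42.3% of the WT calls and 41.0% of the KO calls, and all 551 had the same sign in both. A gene called in one genotype alone is not thereby shown to respond differently, since no such difference passed. Over the 2801 genes called for the average of both responses (18.8% of those tested), the slope of the KO response on the WT response was 0.99 and Pearson's r was 0.866. Those responses share no library, but the genes were chosen by their average, which favours a common sign and a slope near 1. Over all 14878 genes r was 0.507. The slope over the called genes ran from 0.92 to 1.08 on leaving out each library in turn and was 0.94 with 2 surrogate variables. The median absolute response of the 2801 genes was 0.31 on the log2 scale in WT and 0.31 in KO, and 1389 of them (49.6%) were larger in KO. Among the 104 called genes whose average response exceeded 2-fold, the slope was 1.00 and 49 were larger in KO.

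**Figure D1:**
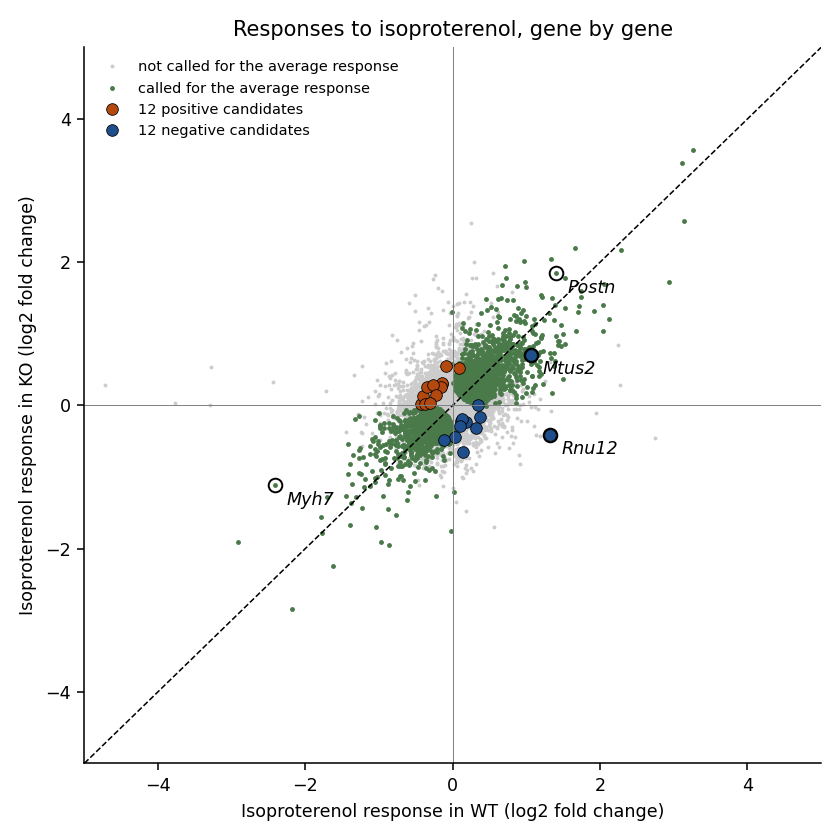
Isoproterenol response of each of 14878 genes in KO (vertical axis, log2 fold change) against that in WT (horizontal axis, log2 fold change), with the dashed line marking equal responses. Green points are the 2801 genes called for the average response, which follow the dashed line with a slope of 0.99, and larger orange and blue points are the 12 positive and 12 negative candidates, most of which sit in the quadrants where the genotypes responded with opposite sign.

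Since none passed, the 12 named genes with the smallest p in each direction are described as candidates and not as changes. Their unadjusted p ran from 1.55e-05 to 0.00148 and their adjusted p from 0.231 to 0.518. The 24 were chosen by this p, so their values below describe the choice and are no support for it. Differences between responses ran from 0.34 (Plxnb2) to 0.64 (Plekhh2) among the positive and from −0.32 (Rab28) to −1.74 (Rnu12) among the negative candidates. Within a genotype, 8 of them (33.3%) passed for isoproterenol in WT and 11 (45.8%) in KO, against 8.76% and 9.03% of all tested genes. The response had opposite signs in the 2 genotypes for 21, against 33.0% of all tested genes, and only Mtus2, Rmnd1 and Ypel3 had the same sign in both. A choice by the difference itself favours opposite signs.

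**Figure D2:**
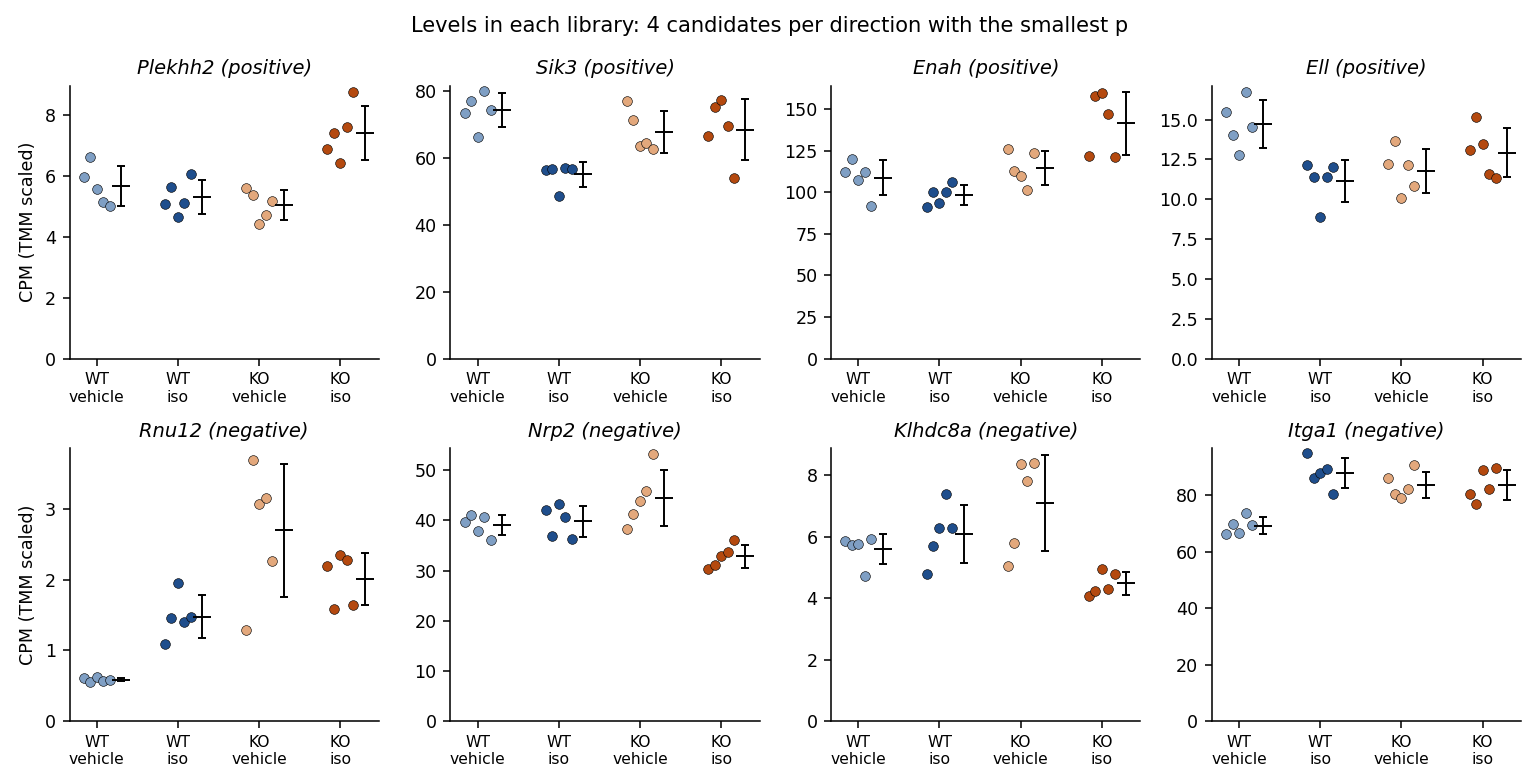
Level in each library (CPM after scaling, vertical axes from 0) for the 4 positive and 4 negative candidates with the smallest p, with bars for the mean and SD of 5 libraries. Plekhh2 was highest in the KO isoproterenol libraries, at 6.44 to 8.76 CPM, and Rnu12 was lowest in the WT vehicle libraries, at 0.559 to 0.619 CPM.

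Rnu12 encodes the U12 small nuclear RNA of the minor spliceosome, which pairs with the branch site of a rare class of introns. It lies on GRCm38 chromosome 15, at 83149644 to 83149794 on the plus strand, as a single exon of 151 bases that overlaps no other annotated exon. Its transcript in GENCODE vM21 is shown because the strongest candidate is a short RNA that was counted only 8 to 98 times per library: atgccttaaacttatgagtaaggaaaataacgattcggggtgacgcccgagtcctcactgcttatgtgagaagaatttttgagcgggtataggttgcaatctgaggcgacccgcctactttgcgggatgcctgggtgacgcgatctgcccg.

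The WT vehicle libraries held 0.612, 0.559, 0.619, 0.566 and 0.585 CPM of Rnu12, from 8 to 16 counts each, and the WT isoproterenol libraries 1.10, 1.46, 1.95, 1.41 and 1.47 CPM. In KO the vehicle libraries held 1.29, 3.69, 3.07, 3.15 and 2.26 CPM and the isoproterenol libraries 2.19, 1.59, 2.35, 2.27 and 1.64 CPM. All WT vehicle libraries lay below every library of the other 3 groups, and the KO groups overlapped. Rnu12 rose with isoproterenol in WT by 1.32 as a log2 fold change (SE 0.269, edgeR adjusted p = 0.00138) and was higher in KO than in WT under vehicle by 2.18 (SE 0.257, adjusted p = 6.76e-06). In KO its response was −0.41 (SE 0.207, adjusted p = 0.229), and the difference between responses was −1.74 (SE 0.340, 95% interval −2.43 to −1.04). It was the one candidate whose interval lay wholly beyond 2-fold. KO vehicle replicate 1 held the lowest level of its group, and without it the adjusted p for the difference between responses was 0.00382. Rnu12 passed in no other fit that left out 1 library. Without both libraries that stood apart its adjusted p was 0.119.

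In 13 of the 24 candidates the gap between genotypes was wider under isoproterenol than under vehicle. The gap was wider under vehicle in 45.8% of the candidates and in 45.1% of all tested genes, a similar share. Nrp2, a co-receptor for semaphorins and for vascular endothelial growth factors, measured 39.6, 41.0, 38.0, 40.8 and 36.1 CPM in WT vehicle and 42.0, 36.9, 43.2, 40.6 and 36.3 CPM in WT isoproterenol libraries. Its KO values were 38.3, 41.2, 43.9, 45.8 and 53.2 CPM under vehicle and 30.4, 31.0, 32.9, 33.8 and 36.1 CPM under isoproterenol. The KO isoproterenol libraries lay below all KO vehicle and all WT isoproterenol libraries, and the highest of them met the lowest WT vehicle library at 36.1 CPM. Nrp2 fell in KO by 0.44 (SE 0.0757, adjusted p = 2.75e-04), its WT response was 0.03 (SE 0.0756, adjusted p = 0.868), and the difference between responses was −0.47 (SE 0.107, 95% interval −0.68 to −0.25). Nrp1, the paralog with the same kinds of ligand, had a difference of −0.33 (SE 0.0889), with a fall in KO by 0.22 (adjusted p = 0.0236) and a WT response of 0.11 (adjusted p = 0.286).

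Plekhh2, a cytoskeletal protein known from kidney podocytes, showed the reverse arrangement. The WT vehicle libraries measured 5.97, 6.64, 5.57, 5.15 and 5.04 CPM and the WT isoproterenol libraries 5.08, 5.65, 4.65, 5.13 and 6.08 CPM. KO vehicle gave 5.63, 5.39, 4.41, 4.73 and 5.18 CPM and KO isoproterenol 6.88, 7.43, 6.44, 7.61 and 8.76 CPM. Every KO isoproterenol library lay above every KO vehicle and every WT isoproterenol library, and the lowest of them lay inside the range of WT vehicle. Plekhh2 rose in KO by 0.55 (SE 0.108, adjusted p = 0.00131) and had a response of −0.09 in WT (adjusted p = 0.679), and the difference was 0.64 (SE 0.155, 95% interval 0.32 to 0.95).

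Enah, which encodes the actin-assembly protein Mena, differed between genotypes under isoproterenol by 0.53 (SE 0.0816, adjusted p = 0.00237) and passed there. KO isoproterenol libraries held 122, 158, 159.6, 147 and 121 CPM, all above the 91.2, 100.1, 93.4, 100.1 and 106 CPM of WT isoproterenol. Under vehicle the groups overlapped, at 91.7 to 119.8 CPM in WT and 101 to 126 CPM in KO. The difference between responses was 0.45 (SE 0.115).

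Mtus2, a microtubule-associated protein, was a strong responder in both genotypes. WT libraries rose from 105, 92.4, 95.6, 96.6 and 93.8 to 197, 179.9, 210.5, 208 and 209 CPM, by 1.06 (log2 fold change, SE 0.0619, adjusted p = 2.07e-12). KO libraries rose from 90.0, 93.0, 88.1, 103 and 106 to 149, 148, 163, 159.5 and 161 CPM, by 0.70 (SE 0.0619, adjusted p = 7.74e-09). The vehicle groups overlapped, and all KO isoproterenol libraries lay below all WT isoproterenol libraries. Of the candidates, Mtus2 alone passed in both genotypes, and its difference between responses was −0.35 (SE 0.0875, 95% interval −0.53 to −0.17).

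Sik3 is a kinase of the salt-inducible family, which protein kinase A phosphorylates and restrains, and it moved in WT. WT vehicle libraries held 73.5, 76.9, 66.3, 79.9 and 74.4 CPM and WT isoproterenol libraries 56.3, 56.8, 48.5, 57.1 and 56.8 CPM, without overlap. KO vehicle held 77.1, 71.4, 63.4, 64.3 and 62.6 CPM and KO isoproterenol 66.4, 75.2, 77.2, 69.5 and 54.0 CPM, which overlapped. Sik3 fell in WT by 0.43 (SE 0.0803, adjusted p = 7.19e-04) against a KO response of 0.01 (SE 0.0800, adjusted p = 0.948), and the difference was 0.44 (SE 0.113). Without both libraries that stood apart it was 0.51 and passed (adjusted p = 0.0498).

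The other candidates with the wider gap under isoproterenol divided in the same ways. Klhdc8a, a kelch-domain protein (difference −0.79, SE 0.191), Rmnd1, required for mitochondrial translation (−0.36, SE 0.0916), and Mlf1, myeloid leukaemia factor 1 (−0.39, SE 0.108), fell in KO, by 0.66, 0.48 and 0.29 (adjusted p = 0.00201, 1.30e-05 and 0.0149), and did not pass in WT. Rhbdf1, an inactive rhomboid that controls the traffic of growth factor precursors, rose in KO by 0.31 (adjusted p = 0.0221), with a difference of 0.46 (SE 0.125). Gtf2i, a multifunctional transcription factor, fell in WT by 0.37 (adjusted p = 0.00209), with a difference of 0.39 (SE 0.109). The tyrosine kinase gene Abl1 (0.38, SE 0.106) and the small GTPase gene Rab28 (−0.32, SE 0.0880) passed in neither genotype.

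In the other 11 candidates the gap between genotypes was wider under vehicle and narrower under isoproterenol. Itga1, the collagen-binding integrin alpha-1 chain, measured 66.3, 69.7, 66.5, 73.7 and 69.4 CPM in WT vehicle and 95, 86.0, 87.6, 89.2 and 80.4 CPM in WT isoproterenol libraries. In KO it measured 86.0, 80.4, 78.9, 82.2 and 90.5 CPM under vehicle and 80.4, 76.9, 88.7, 82.2 and 89.4 CPM under isoproterenol. The WT vehicle libraries lay below the other 3 groups, which overlapped. Itga1 rose in WT by 0.34 (SE 0.0600, adjusted p = 3.41e-04), the KO response was −0.00 (SE 0.0598, adjusted p = 0.991), and the vehicle difference of 0.28 did not pass (SE 0.0599, adjusted p = 0.0556).

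Nav3, a neuron navigator protein that binds microtubule ends, had the same arrangement and passed under vehicle. WT vehicle libraries held 9.69, 9.36, 9.36, 11.6 and 12.2 CPM and KO vehicle libraries 13.3, 14.8, 12.0, 15.1 and 17.4 CPM, a difference of 0.48 (SE 0.0964, adjusted p = 0.0282). Only the lowest KO library fell inside the WT range. Under isoproterenol WT held 11.9 to 14.6 CPM and KO 11.4 to 13.9 CPM, a difference of −0.05 (SE 0.0962, adjusted p = 0.869). Nav3 rose in WT by 0.37 (adjusted p = 0.0158), and the difference between responses was −0.54 (SE 0.136).

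Dixdc1, a DIX-domain protein of Wnt signalling, was the mirror image. It was lower in KO under vehicle, at 5.21, 6.79, 5.18, 5.01 and 4.87 CPM against 9.28, 8.46, 8.43, 8.80 and 7.91 CPM in WT, without overlap, by 0.66 as a log2 fold change (SE 0.108, adjusted p = 0.00235). Under isoproterenol KO held 6.78, 5.65, 6.82, 7.10 and 6.52 CPM and WT 5.78, 7.58, 6.25, 8.13 and 7.61 CPM, which overlapped. Neither response passed (WT −0.27, KO 0.28), and their difference was 0.55 (SE 0.154).

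Per1, a repressor of the circadian clock and a target of cyclic AMP signalling, measured 75.1, 83.2, 62.9, 86.7 and 72.2 CPM in WT vehicle and 47.3, 69.4, 55.6, 57.8 and 67.1 CPM in WT isoproterenol libraries. KO vehicle gave 68.0, 66.1, 52.5, 61.0 and 52.6 CPM and KO isoproterenol 73.8, 86.5, 69.3, 70.4 and 59.1 CPM. All neighbouring groups overlapped, with WT means of 76.0 ± 9.42 CPM under vehicle and 59.4 ± 8.99 CPM under isoproterenol and KO means of 60.0 ± 7.30 and 71.8 ± 9.85 CPM (SD, n = 5). Neither response passed (WT −0.35, adjusted p = 0.0515, and KO 0.26, adjusted p = 0.167), and the difference was 0.61 (SE 0.158, 95% interval 0.28 to 0.94).

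Among the remaining candidates of this kind, Ell, an elongation factor of RNA polymerase II (difference 0.52, SE 0.140), and the semaphorin receptor gene Plxnb2 (0.34, SE 0.0972) fell in WT by 0.40 and 0.30 (adjusted p = 0.00970 and 0.00487). Ypel3, a small zinc-binding protein (0.44, SE 0.120), and Arhgef17 (0.41, SE 0.114) rose in KO by 0.53 and 0.25 (adjusted p = 1.31e-04 and 0.0439). Tmx2, a thioredoxin-related membrane protein (−0.41, SE 0.110), and the G protein gamma subunit gene Gngt2 (−0.63, SE 0.175) passed in neither genotype. Gngt2 shares 12.5% of its exon bases with Abi3 on the other strand, and Tmx2 shares 10.8% with a transcript on its own strand, so that reads of these pairs may not be told apart.

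**Figure D3:**
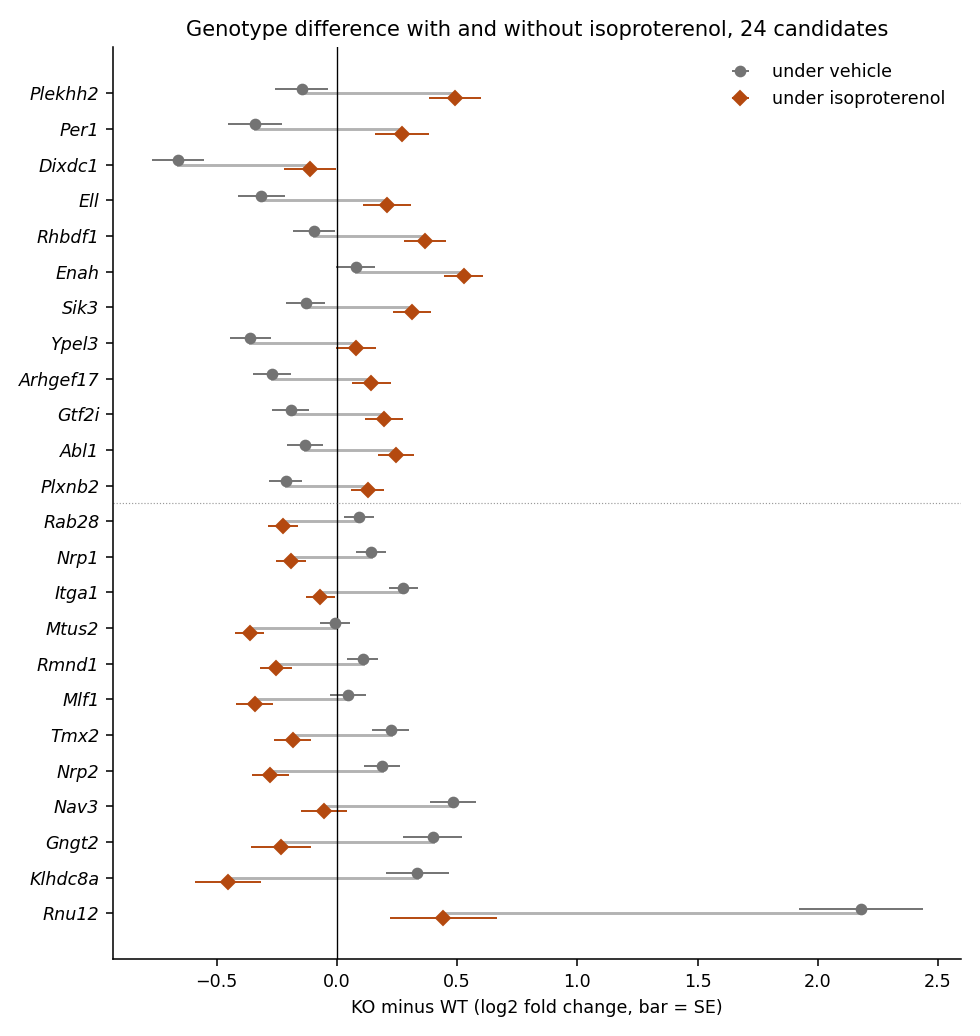
Difference between KO and WT (log2 fold change, horizontal axis, bars are 1 SE) under vehicle (grey circles) and under isoproterenol (orange diamonds) for the 24 candidates. The distance between the 2 marks of a gene is its difference between responses, and in 20 of 24 the marks lie on opposite sides of 0, the exceptions being Enah, Dixdc1, Mtus2 and Rnu12. That is 83.3%, against 46.7% of all tested genes and 90.1% of those with an unadjusted p under 0.05, and a choice by the difference favours it.

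Baseline differences between genotypes were few beside the responses to the drug. Under vehicle 19 genes differed between KO and WT (0.128%), 9 higher (0.0605%) and 10 lower (0.0672%) in KO, and under isoproterenol 27 (0.181%), 8 higher (0.0538%) and 19 lower (0.128%). The called difference exceeded 2-fold for 6 genes under vehicle and 3 under isoproterenol, against 120 genes for isoproterenol in WT and 117 in KO. The median absolute log2 difference over all tested genes was 0.10 between genotypes under vehicle, 0.11 between genotypes under isoproterenol, 0.15 for either response and 0.14 for the difference between responses. Of the candidates, 3 passed for genotype under vehicle (Rnu12, Dixdc1 and Nav3) and 2 under isoproterenol (Enah and Mtus2). The counts for genotype moved with the setting, from 10 to 35 under vehicle and from 10 to 55 under isoproterenol on leaving out 1 library at a time.

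A score per library, the mean log2 CPM of the 1452 average rises (9.76%) minus that of the 1349 average falls (9.07%), placed the whole response on 1 axis. It ran from −1.48 to −1.38 in WT vehicle, from −1.34 to −1.29 in KO vehicle, from −0.74 to −0.64 in WT isoproterenol and from −0.72 to −0.37 in KO isoproterenol libraries. The vehicle groups did not overlap, with the KO mean 0.11 above the WT mean and so nearer to the isoproterenol groups. Under isoproterenol the groups overlapped, and the KO mean lay 0.10 above the WT mean. The genes of the score were chosen from these same libraries. The score moved by 0.75 in WT and by 0.74 in KO. The highest score belonged to KO isoproterenol replicate 5, without which the mean of its group was −0.63 in place of −0.58.

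Among the 10 genes reported whatever their p, the myosin heavy chain genes had the smallest p and the collagens the widest intervals. Myh7, the slow myosin of the fetal and stressed mouse heart, measured 218, 350.4, 297, 188 and 219 CPM in WT vehicle and 60.7, 41.1, 45.9, 47.9 and 43.5 CPM in WT isoproterenol libraries. KO vehicle held 200.1, 101, 103, 83.7 and 73.2 CPM and KO isoproterenol 62.9, 58.0, 49.7, 38.5 and 49.4 CPM. Both genotypes fell without overlap, and the KO vehicle libraries lay below the WT vehicle libraries except for KO vehicle replicate 1. The difference between responses was 1.30 (SE 0.348, 95% interval 0.56 to 2.03, unadjusted p = 0.00188, adjusted p = 0.518). It lay in the vehicle groups, where KO was lower by −1.18 (adjusted p = 0.0977), and not under isoproterenol (0.11, adjusted p = 0.899). Myh6, the fast myosin of the adult heart, had a difference of 0.29 (SE 0.124, unadjusted p = 0.0261), with a genotype difference of −0.29 under vehicle and 0.00 under isoproterenol. Without WT vehicle replicate 2 the Myh6 difference was 0.19 (edgeR unadjusted p = 0.0810). Without both libraries that stood apart the differences were 1.18 for Myh7 and 0.27 for Myh6 (edgeR unadjusted p = 0.00639 and 0.00293). Reads shared between these near-identical neighbours may have been split or dropped, and 13.3% of the exon bases of Myh7 overlap transcripts of the other strand.

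The other marker genes did not pass for a different response. Nppb, brain natriuretic peptide, measured 33.0, 17.7, 29.6, 26.8 and 22.1 CPM in WT vehicle and 48.8, 37.1, 41.8, 36.3 and 48.3 CPM in KO vehicle libraries, without overlap. With isoproterenol the values were 20.3, 23.9, 37.1, 39.1 and 39.7 CPM in WT and 39.6, 38.2, 43.3, 30.2 and 23.5 CPM in KO, which overlapped. The vehicle difference of 0.71 did not pass (adjusted p = 0.279), and the difference between responses was −0.59 (SE 0.303, 95% interval −1.23 to 0.05). Nppa, atrial natriuretic peptide, had −0.26 (SE 0.125, unadjusted p = 0.0467), with 61.5% of its exon bases under an antisense transcript, and Acta1, skeletal alpha actin, −0.27 (SE 0.303, 95% interval −0.91 to 0.37). Without both libraries that stood apart the differences were −0.37 for Nppb, −0.16 for Nppa (edgeR unadjusted p = 0.206) and −0.11 for Acta1. Rps23, the substrate of OGFOD1, had −0.09 (SE 0.126, 95% interval −0.35 to 0.16).

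The matrix genes had estimates that rested on 1 library. Col1a1, a chain of type I collagen, measured 26.0 to 56.4 CPM in 4 KO isoproterenol libraries and 379 CPM in replicate 5, and its difference of 1.71 (SE 0.908, 95% interval −0.21 to 3.63) was 0.20 without that library and WT vehicle replicate 2. Col3a1, type III collagen, had 0.74 (SE 0.50) and 0.07 without both, and the matricellular gene Postn 0.45 (SE 0.467) and −0.17 without both.

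Gene lists were read by how many of their tested members had an unadjusted p under 0.05 in each direction, beside 4.24% positive and 3.43% negative over all tested genes, and by their median, beside 0.00 over all. No member of the 33 lists passed over all genes. In bulk tissue, fewer cells of a type and less RNA per cell cannot be told apart. The largest median was that of the erythroid and platelet markers, at 0.78, with 6 of 10 positive. Alas2, the first enzyme of heme synthesis in red cells, measured 23.7, 21.9, 17.0, 19.9 and 12.4 CPM in WT vehicle and 12.5, 12.1, 17.2, 14.0 and 10.6 CPM in WT isoproterenol libraries. In KO it measured 12.2, 17.0, 14.7, 16.4 and 15.7 CPM under vehicle and 22.5, 19.6, 14.9, 16.1 and 26.4 CPM under isoproterenol. Its groups overlapped within each genotype, and the WT response of −0.50 and the KO response of 0.39 did not pass (adjusted p = 0.0989 and 0.192). The anion exchanger gene Slc4a1 (difference 1.5, SE 0.480) and the globin genes Hbb-bs (0.83), Hbb-bt (1.00), Hba-a1 (0.78) and Hba-a2 (0.77) had the same direction, while the platelet gene Pf4 had −0.33. The globin genes are near-identical pairs. The summed level of the list was 654 CPM in KO isoproterenol replicate 5 and at most 417 CPM in the rest of that group, and without it and WT vehicle replicate 2 the median was 0.58, with 6 positive still. The part of blood content in these values was not tested.

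Of 19 circadian clock genes 4 were positive and 1 negative, with a median of 0.27. Hlf, a clock-controlled transcription factor, measured 14.3, 21.7, 17.5, 22.6 and 19.1 CPM in WT vehicle and 12.1, 12.9, 14.7, 13.0 and 14.0 CPM in WT isoproterenol libraries. KO vehicle gave 17.8, 14.1, 12.8, 15.9 and 12.3 CPM and KO isoproterenol 16.6, 17.5, 15.8, 15.5 and 11.3 CPM, and the groups of each genotype overlapped. Hlf fell in WT by 0.51 (adjusted p = 0.00909) against a KO response of 0.07 (adjusted p = 0.801), a difference of 0.58 (SE 0.173). Per1, Per2 (0.69, SE 0.249) and Per3 (0.46, SE 0.208) were positive and their activator Clock was negative (−0.33, SE 0.122), while Arntl, the partner of Clock, had −1.10 (SE 0.689). Without both libraries that stood apart 5 were positive and 2 negative, with a median of 0.29. On leaving out each library in turn the median lay between 0.15 and 0.35, lowest without WT isoproterenol replicate 1. The time of day at which hearts were taken is not given in the sources used here.

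Interferon-stimulated genes leaned the other way. Of 22, 5 were negative and none positive, with a median of −0.30, and 18 of 22 estimates were below 0. Usp18, which removes the ubiquitin-like ISG15 from proteins, measured 0.969, 1.26, 1.16, 1.18 and 1.03 CPM in WT vehicle and 2.31, 1.16, 1.25, 1.90 and 1.89 CPM in WT isoproterenol libraries. In KO it measured 1.63, 0.942, 1.15, 1.48 and 1.63 CPM under vehicle and 0.848, 1.02, 0.982, 1.76 and 1.01 CPM under isoproterenol. The groups overlapped at these low levels, and the difference was −0.91 (SE 0.324). The guanylate-binding protein gene Gbp3 (−0.52), the transcription factor gene Irf9 (−0.38), Mx2 (−0.83) and Ifit1 (−0.54) were the other members with p under 0.05. The median response of the list was 0.32 in WT and 0.01 in KO. Of its 22 members 3 and 0 were called, beside 8.76% and 9.03% of all tested genes. Without both libraries that stood apart the median was −0.31, and it lay between −0.36 and −0.23 on leaving out each library in turn.

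Atrial myocyte genes had a median of −0.21, with 5 of 10 negative. Myl4, the atrial essential light chain, measured 147, 112, 165, 148 and 157 CPM in WT vehicle and 159, 156, 141, 131 and 165 CPM in WT isoproterenol libraries. KO vehicle held 229, 194, 183, 189 and 177 CPM and KO isoproterenol 168, 161, 142, 145 and 136 CPM. The KO vehicle libraries lay above all others, and the remaining groups overlapped. Myl4 fell in KO by 0.37 (adjusted p = 0.00714), and the difference between responses was −0.42 (SE 0.125). Myl7 (−0.46), the sarcoplasmic reticulum regulator gene Sln (−0.48), Stard10 (−0.40) and Nppa made up the 5, and the atrial myosin-binding protein gene Mybphl, listed with the fetal genes, had −0.49 (SE 0.146). The summed level of the list was 1037 to 1289 CPM in KO vehicle and 794 to 1028 CPM in WT vehicle libraries. Under isoproterenol it was 954 to 1085 CPM in WT and 887 to 1189 CPM in KO, and both ranges overlapped that of KO vehicle. Without both libraries that stood apart 3 were negative and the median was −0.15, with −0.30 for Myl4 and −0.31 for Mybphl. The part of atrial content in these values was not tested.

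**Figure D4:**
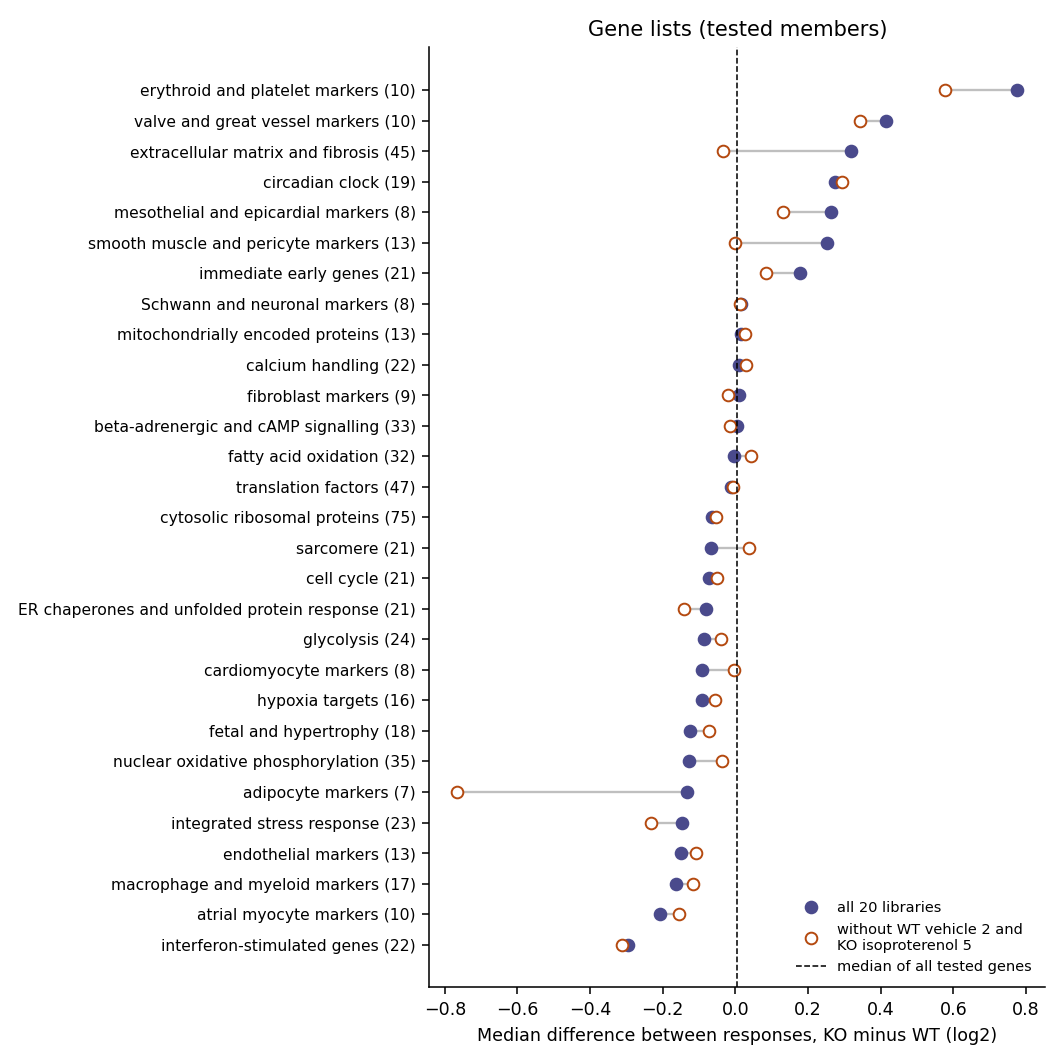
Median difference between responses (log2, KO minus WT) over the tested members of the 29 lists with at least 7 of them, number of members in brackets, with all 20 libraries (filled) and without both libraries that stood apart (open). The dashed line is the median of all tested genes at 0.00, and the matrix list moves from 0.32 to −0.03 while the circadian and interferon lists stay at 0.27 to 0.29 and −0.30 to −0.31.

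The matrix, smooth muscle and nuclear oxidative phosphorylation lists moved most of the way to 0 without both libraries that stood apart. The extracellular matrix list had 6 of 45 positive, among them Tgfb2 (0.59) and Thbs2 (0.30), and 0 negative, with a median of 0.32, and without both libraries 1 positive and 2 negative with a median of −0.03. Its summed level was 8404 CPM in KO isoproterenol replicate 5 and at most 3123 CPM in the rest of that group. Calls within a genotype followed, from 17 in WT and 32 in KO to 25 and 28. Over all tested genes and all libraries, 8.76% were called in WT and 9.03% in KO. Smooth muscle and pericyte markers went from a median of 0.25 to −0.00, and mesothelial markers from 0.26 to 0.13. Valve and great vessel markers had 0.42 and 0.34, and their summed level was 2133 CPM in KO isoproterenol replicate 5 against at most 141 CPM in the rest of the group. Nuclear oxidative phosphorylation genes had 34 of 35 estimates below 0 and a median of −0.13. Of the 35, 1 was called for isoproterenol in WT and 14 in KO, beside 8.76% and 9.03% of all tested genes. Without both libraries the median was −0.04 and the calls were 7 and 9. For this list and the matrix list, the shares over all genes come from the fit with all libraries. Whether the calls of either list moved more than those of all genes was not tested. Ndufa9, a subunit of complex I, had −0.26 (SE 0.0919) with all libraries.

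On a list of genes around the pathway that isoproterenol drives, differences were small. Of 33 beta-adrenergic and cyclic AMP genes 3 were positive and 0 negative, with a median of 0.01, and the interval of all 33 lay within 2-fold either way. Without both libraries that stood apart 3 were positive and 3 negative, with a median of −0.02. With all libraries the 3 were Gnas, the stimulatory G protein (0.30, SE 0.106), Adra1a (0.29, SE 0.107) and the adenylyl cyclase gene Adcy6 (0.25, SE 0.119). Adra1a encodes the alpha-1A adrenergic receptor, which the list holds although it is not a beta receptor. Antisense transcripts overlap 22.0% of the exon bases of Gnas and 8.92% of those of Adcy6, and the strand setting of the counting is not known. Calcium handling genes had a median of 0.01 with 1 positive and 3 negative of 22. Sarcomere genes had −0.07 with 3 positive, among them the Z-disc gene Actn2 (0.33). Of the 21, 1 was negative, the myosin light chain kinase gene Mylk3 (−0.34, SE 0.0958). Without both libraries the sarcomere median was 0.04, with 4 positive and 1 negative. Fatty acid oxidation genes had a median of −0.01 with 1 of 32 positive, the fatty acid transporter gene Slc27a1 (0.34).

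Genes of protein synthesis, where OGFOD1 acts, had narrow intervals. Of 75 cytosolic ribosomal protein genes none had an unadjusted p under 0.05 in either direction, the median was −0.06, and the interval lay within 1.5-fold either way for 74. Of the 75 estimates 56 were below 0. Without both libraries that stood apart 2 were negative and 0 positive, with a median of −0.05, and with 2 surrogate variables the median was 0.04. Translation factors had a median of −0.01 with 1 positive, the elongation factor 2 kinase gene Eef2k (0.41, SE 0.124), and 2 negative of 47, and 45 lay within 1.5-fold. Endoplasmic reticulum chaperones had a median of −0.08 with 3 of 21 negative, namely the chaperone genes Hspa5 (−0.27) and Hyou1 (−0.26) and Creld2 (−0.63), and without both libraries that stood apart a median of −0.14 with 6 negative. The integrated stress response had 18 of 23 estimates below 0 and a median of −0.15, with 1 positive, the mitochondrial serine hydroxymethyltransferase gene Shmt2 (0.30), and 0 negative. Without both libraries its median was −0.23, with 1 positive and 1 negative.

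The fetal and hypertrophy list had 5 of 18 negative and 1 positive, Myh7, with a median of −0.12. Its 5 negative members were Mybphl and the atrial genes Myl4, Sln, Myl7 and Nppa, which the atrial list holds too. Without both libraries that stood apart 3 were negative and 1 positive, with a median of −0.07. Endothelial markers had 3 of 13 negative, namely the receptor genes Tek (−0.28) and Kdr (−0.28) and the sialomucin gene Emcn (−0.28), and 2 positive, the TGF-beta co-receptor gene Eng (0.29) and the receptor gene Flt1 (0.24). The endothelial median was −0.15, and without both libraries 2 were negative and 2 positive. Glycolysis genes had 3 of 24 negative, the enzyme genes Pgam2 (−0.26), Pgk1 (−0.27) and Tpi1 (−0.21), and 1 positive, the glucose transporter gene Slc2a1 (0.45), with a median of −0.09. Without both libraries none of the 24 was negative and 1 was positive.

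Hypoxia targets had 2 of 16 negative and 1 positive, with a median of −0.09. Immediate early genes had 1 of 21 positive with a median of 0.18. Without both libraries that stood apart 0 were positive and their median was 0.08. Cell cycle genes had 1 positive and 1 negative of 21 with a median of −0.07. None of 13 mitochondrially encoded proteins (median 0.02), 17 macrophage markers (−0.16) or 4 skeletal muscle markers (−0.05) had an unadjusted p under 0.05. Cardiomyocyte markers had 1 of 8 positive, Myh6, with a median of −0.09, which was −0.004 without both libraries. Fibroblast markers had 1 of 9 negative with a median of 0.01, and Schwann and neuronal markers 1 of 8 negative with a median of 0.02. Adipocyte markers went from −0.13 to −0.77 without both libraries, over 7 genes of which 1 had an interval within 2-fold. Lymphocyte and neutrophil lists had 2 tested members each, with medians of −0.58 and −1.03, and the lung and thymus list had 0.

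With 5 libraries a group, the size of difference that the data leave room for depended on the level of the gene. The margin, the distance from an estimate to either end of its 95% interval, had a median of 0.37 on the log2 scale for the difference between responses (1.29-fold), against 0.26 for the response of either genotype. The interval lay within 2-fold either way for 11965 genes (80.4%) and within 1.5-fold for 8153 (54.8%). With intervals widened to hold for all genes at once, 5719 (38.4%) lay within 2-fold and 799 (5.37%) within 1.5-fold. Below an average of 1 CPM the median margin was 0.97 and 13.8% of 2074 genes lay within 2-fold. The margin was 0.57 between 0 and 2 log2 CPM, 0.32 between 2 and 4, 0.22 between 4 and 6 and 0.20 from 6 upward, where 96.6% of 974 genes lay within 2-fold.

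**Figure D5:**
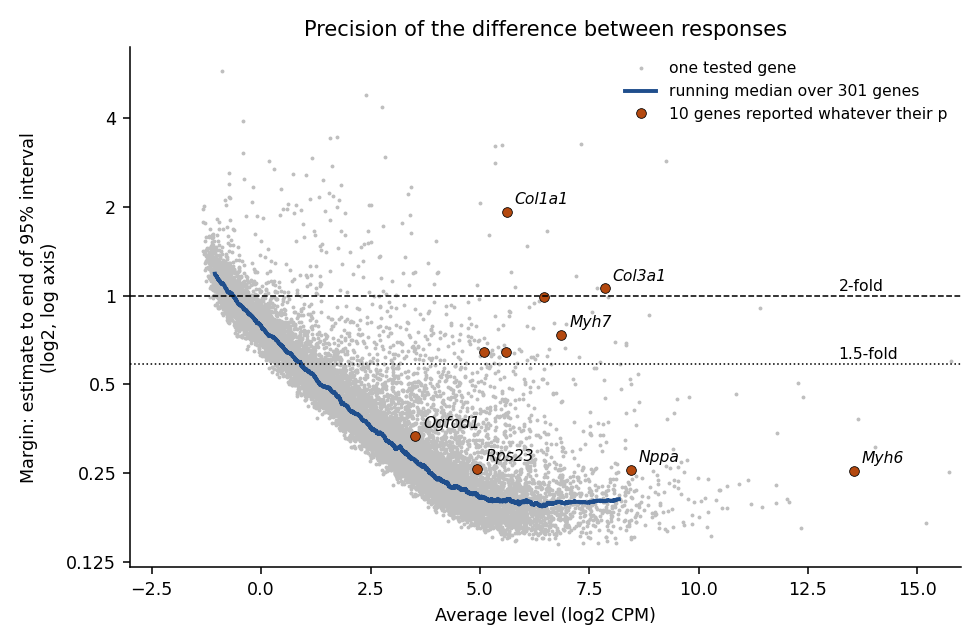
Margin of the 95% interval of the difference between responses (log2, logarithmic vertical axis) against the average level (log2 CPM) of each tested gene, with a running median in blue and lines at 2-fold and 1.5-fold. Margins narrow from 0.97 below 0 log2 CPM to 0.20 from 6 log2 CPM upward, and Col1a1 and Col3a1 lie above the 2-fold line at levels where most genes lie below it.

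Precision was low among the strongest responders to the drug. Of the 2801 genes called for the average response 2511 (89.6%) had an interval within 2-fold, but of the 104 that changed by more than 2-fold only 24 (23.1%) did, with a median margin of 0.92. The intervals of the rest reached past a 2-fold difference in at least 1 direction. The first call over 14878 genes needed an unadjusted p of 3.36e-06, which is 5.73 SE, or 1.03 on the log2 scale (2.04-fold) at the median SE of 0.180. Had as many genes differed as passed for WT isoproterenol (1304), the limit would have been 3.09 SE, or 0.56 (1.47-fold). Only 8 genes had an interval wholly beyond 1.5-fold, 5 of them below 1 CPM on average, and 2 others were the rRNA-like transcripts Gm42418 and Gm23935 that were high in WT vehicle replicate 2. The limit scales with the SE of a gene, whose median was 0.475 below 0 log2 CPM, 0.107 for the 3330 genes between 4 and 6 and 0.0976 from 6 upward. The limit concerns estimates at this depth and number of libraries. A true difference below it is not thereby excluded, and one above it need not pass.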

How the data were processed

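Stranded libraries of total RNA from powdered hearts were sequenced, and 20 libraries in 4 groups of 5 were used. The values are raw counts per gene that the authors deposited as 1 table. The submitters' processing notes name HISAT2 2.1.0, featureCounts 1.6.3, R 3.6.0, limma 3.40.6 and the genome build GRCm38. The annotation release, the strand setting of the counting and the treatment of reads with several matches are not given in the sources used here. For positions and exon overlaps, GENCODE vM21 (GRCm38) was used, and it held 55154 of the 55335 gene identifiers.

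Genes with low counts were removed with filterByExpr, libraries were scaled with TMM factors, and 1 mean per group was fitted to 14878 genes with edgeR 4.0.16 in R 4.3.3 (robust quasi-likelihood, 16 residual degrees of freedom), with Benjamini-Hochberg adjustment over all tested genes and calls at an adjusted p under 0.05. Intervals at 95% are Wald intervals from that fit, and the wider ones use a Bonferroni quantile over all tested genes. The slope between responses was fitted by total least squares through the origin. The script was tested on simulated data. Alternatives used DESeq2 1.42.0, limma 3.58.1 (voom, with and without quality weights), sva 3.50.0 (2 surrogate variables), other scalings and filters, fits of 2 groups, each library left out in turn, and both libraries that stood apart left out. Figures were drawn with matplotlib 3.10.9 in Python 3.11.15.

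Named genes are those with a symbol that is not a clone name and an average of at least 0 log2 CPM, the 12 with the smallest p in each direction, 10 genes reported whatever their p, and up to 3 members with the smallest p from each of 33 lists. Further list members were named after their values were seen, to complete a count or to show a member that went the other way. The design, the members and the lists were chosen with earlier results of these data known.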

Additional observations from a re-analysis of the deposited data

Results flagged for a closer look

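In 11 of 140 groups of 5 libraries examined, over the 24 candidates, the 10 genes reported whatever their p and the response score, 1 library lay far from the other 4, by Dixon's criterion of 0.710 for the gap divided by the range. Chance gives about 1 in 20. KO isoproterenol replicate 5 was the library in 4 of them, being highest for Rps23 (37.0 CPM), Postn (386 CPM), Col1a1 (379 CPM) and Col3a1 (1031 CPM). WT isoproterenol replicate 3 was lowest for the candidates Sik3 (48.5 CPM) and Ell (8.91 CPM). Among other candidates, KO vehicle replicate 2 was highest for Dixdc1 (6.79 CPM), WT vehicle replicate 4 was lowest for Klhdc8a (4.74 CPM) and WT isoproterenol replicate 1 was highest for Gngt2 (5.08 CPM). KO vehicle replicate 1 was highest for Myh7 (200.1 CPM) and WT isoproterenol replicate 5 for Nppa (392 CPM).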

How the results depend on the processing

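The count of genes with a different response was 0 with edgeR, limma-voom, other scalings, a stricter filter, mitochondrially encoded genes removed and 2 surrogate variables. It was 1 with DESeq2, 34 without a filter on low counts and 4 without both libraries that stood apart, and 0 to 1 on leaving out each library in turn. The 4 were Aox1, Fam198b, Gimap4 and Sik3, of which the first 3 are named after their values were seen. The call on leaving out KO vehicle replicate 1 was Rnu12 and that on leaving out KO isoproterenol replicate 5 was Aox1 (adjusted p = 0.0475). KO against WT under vehicle gave 73 genes with DESeq2, 40 with voom quality weights, 117 without a filter, 48 with 2 surrogate variables, 38 without both libraries and 10 to 35 on leaving out 1. Under isoproterenol the counts were 138, 62, 250, 45, 50 and 10 to 55. The median margin of the 95% interval was 1.58 without a filter, which adds genes of few counts. The causes of the other shifts were not tested. All 24 candidates kept their direction and an unadjusted p under 0.05 in the 30 alternatives, and 7 passed in at least 1, but they were chosen by that p. Of the 7, Enah, Per1, Nrp2, Klhdc8a and Nav3 passed only in the fit without a filter on low counts. Estimates near 0 changed sign for Ogfod1 (−0.18 to 0.031 on leaving out 1 library) and Rps23 (0.037 with 2 surrogate variables). The estimate of 0.45 for Postn changed sign with quality weights (−0.032), without both libraries (−0.17) and, on leaving out 1 library (−0.14 to 0.62), without KO isoproterenol replicate 5 alone. The counts for isoproterenol within each genotype stayed within 1.5 times. No paired analysis was possible because the labels give no replicate numbers, and the numbers used here follow the order of the samples. Depth limits genes below 1 CPM most.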
